A study of Oryza sativa Japonica Group with 15 samples.

Results

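Acibenzolar-S-methyl (ASM) sprayed on rice leaves was followed, 1 day later, by a set of root genes whose 3 ASM libraries all lay below the other 12 libraries of the series. The set holds 96 genes, out of 14025 rice (Os) rows whose normalised read count averaged 20 or more over the 15 libraries, and out of 36747 features in the file. The genes were selected on their measured values. A gene was taken if its highest ASM value was below the lowest value of every other library, and if its mean log2(normalised count + 1) with ASM was at least 0.4 below that of the mock-sprayed plants. The low ASM values are therefore what chose these genes, and they are given here as a description, with no test. The rule touched the other groups as well: each of their libraries had to exceed the highest ASM value, and the Mock mean had to be high. It did not use how PA1x, PA2x and BABA differ from each other above that floor, and the tests below are mainly on those differences.

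The plants were Oryza sativa Japonica Group, cultivar Kitaake, grown at 28 °C with 12 h of light and transplanted 5 days after germination. There were 5 groups of 3 libraries, each from the root systems of 4 pooled plants: Mock, BABA (R,S-beta-aminobutyric acid, 3.5 mM), ASM (250 µM), PA1x and PA2x (piperonylic acid, 300 µM). The sample labels call the ASM group BTH. All sprays went to the leaves in 0.1% Tween 20 on day 13 after transplantation, PA2x plants had a further spray on day 7, and all roots were harvested on day 14. Doses differ between compounds, so compound and dose cannot be told apart, nor schedule where PA2x is set against BABA, ASM or Mock. PA1x and PA2x share compound and dose and differ in the day 7 spray. The labels describe no mock group sprayed on day 7 as well, so the compound and the act of spraying on that day cannot be told apart.

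Salicylic acid is the hormone that switches on systemic resistance in plants. ASM acts in its place, and in rice it works through the regulators WRKY45 and NPR1. Piperonylic acid inhibits cinnamate 4-hydroxylase, an early enzyme of the phenylpropanoid pathway, from which lignin and, by 1 route, salicylic acid derive. BABA, an amino acid found outside proteins, primes plants for a stronger defence response. A resistance inducer can lower genes as well as raise them. The file pairs its identifiers with no gene names, so the genes are given by RAP identifier, whose first digits are the chromosome.

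Recovered read totals were 6066946 to 6911751 in the ASM libraries and 4130194 to 9480830 in the other 12, so ASM depth lay inside the range of the rest. Of 5 root marker genes and 4 leaf marker genes none was at 0 over a whole group. The root markers summed to 16383 to 27829 normalised reads with ASM, 25628 to 31991 in Mock, 24883 to 30250 in PA1x, 21070 to 26791 with BABA and 14283 to 23037 in PA2x, and the leaf markers to 284 at most in any library. Of the 5 root markers 2 were called lower with ASM than in Mock and 0 higher, and the 2 are silicon transporter genes. LSI1 (Os02g0745100), the influx channel, differed by -0.66 ± 0.14 (log2 difference ± SE, limma adjusted p = 0.0102). LSI2 (Os03g0107300), the efflux carrier, differed by -0.46 ± 0.12 (adjusted p = 0.0429). The lower level of LSI1 was not particular to ASM. It was at 4121 to 4732 normalised reads with ASM, 4932 to 5553 with BABA, 3778 to 5465 in PA2x, 6274 to 7274 in Mock and 7320 to 8409 in PA1x. The part of such markers in the result was not tested, and in bulk roots fewer cells of a type and less RNA per cell cannot be told apart. ASM replicate 1 was the highest of the 3 ASM libraries for 46 of the 96 genes, or 47.9%, and for 37.8% of the 14025 rows. ASM replicate 3 was the highest for 22.9% of the 96 and for 35.3% of the rows. Without ASM replicate 1 the same rule takes 448 genes, 94 of the 96 among them. Without ASM replicate 2 it takes 195, without ASM replicate 3 it takes 167 and without Mock replicate 2 it takes 154. Leaving out any library loosens the separation that the rule asks for, so a count can rise for that reason alone.

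Over the 96 genes the log2 difference between ASM and Mock ran from -0.41 to -2.02, with a median of -0.68, where the median of all 14025 rows was -0.01. It was -1 or lower for 22 genes and -1.5 or lower for 3. A gene was called where limma's Benjamini-Hochberg adjusted p, taken over the 18288 genes that averaged 5 or more, was under 0.05. Shares called are given over the 14025 rows from which the set was drawn. Of these 1.55% were called lower with ASM than in Mock, and 62 of the 96 were. The rule used this contrast, so nothing is read from that count. The reads of the 96 genes made up 0.273% to 0.293% of each ASM library, 0.447% to 0.493% of each Mock library and 0.541% to 0.590% of each PA1x library. The genes ranged from a mean of 20.1 to 3816 normalised reads over the 15 libraries, with a median of 131 against 114 for all 14025 rows.

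**Figure D1:**
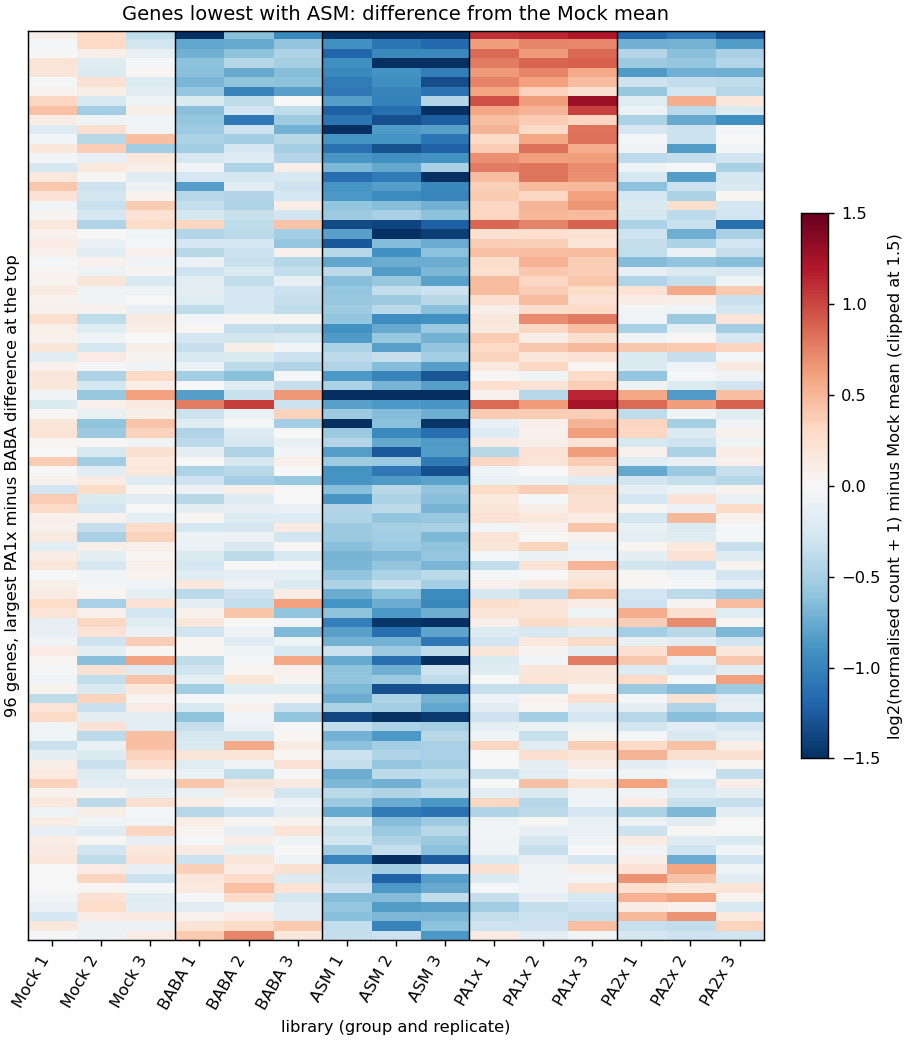
Difference of each library from the Mock mean, as log2(normalised count + 1), for the 96 genes (rows, ordered by the PA1x minus BABA difference) in the 15 libraries (columns), clipped at 1.5. The ASM columns are blue throughout by the choice of genes; the PA1x columns are red in the upper part, where the BABA and PA2x columns are pale blue.

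The gene with the largest drop was Os03g0725200. It had 15.9, 17.3 and 16.4 normalised reads in ASM replicates 1 to 3, 74.6, 86.8 and 53.5 in Mock, 22.6, 45.1 and 35.7 with BABA, 30.5, 32.9 and 28.2 in PA2x, and 151, 155 and 163 in PA1x. Its 3 PA1x libraries were above all other 12, and its BABA and PA2x libraries lay between ASM and Mock with no overlap with either. Its log2 difference between ASM and Mock was -2.02.

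In 4 more of the 10 genes with the largest differences, PA1x stood above all other libraries. Os03g0609500 had 105, 66.4 and 49.1 normalised reads with ASM, 176 to 231 in Mock, 131 to 149 with BABA, 134 to 148 in PA2x and 343 to 373 in PA1x. Os01g0860601 had 239, 253 and 161 with ASM, 468 to 592 in Mock, 443 to 448 with BABA, 297 to 444 in PA2x and 731 to 927 in PA1x. Both genes were thus highest after a single piperonylic acid spray, and after the repeated spray lay between ASM and Mock. Os03g0806700 was at 18.9, 20.2 and 10.9 with ASM against 31.3 to 62.0 in Mock and 64.9 to 93.2 in PA1x. Os04g0581700, with a mean of 21.6, was at 7.70 to 8.73 with ASM, 15.6 to 26.8 in Mock, 9.39 to 16.98 in PA2x and 36.9 to 40.7 in PA1x. The last of these is the least abundant of the 10, and its ASM values are near the 1.96 to 4.84 normalised reads that 3 reads are worth. Its mean without the PA1x libraries was 17.2, so it passed the minimum of 20 only through PA1x. Nothing is read from its high PA1x values.

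In the other genes PA1x did not stand above the rest. Os01g0304400 had 104, 77.0 and 68.7 normalised reads with ASM, and 188 to 349 in the other 12 libraries. Its lowest library without ASM was 1.80 times its highest ASM library, the widest such gap of the 96. Os02g0667100 had 58.7, 53.9 and 55.6 with ASM, 137 to 186 in Mock and 98.7 to 148 in the other 9 libraries, with all Mock libraries above all PA1x and PA2x libraries. Os10g0546100 had 86.5, 60.6 and 72.0 with ASM and 103 to 200.99 in the other 12, and Os05g0549232 had 7.96, 22.1 and 12.0 against 22.6 to 49.8. None of these 4 genes passed limma's F test over the 4 other groups, given further on (adjusted p = 0.158 to 0.86). Os04g0554600, the last of the 10, is described with its neighbour.

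**Figure D2:**
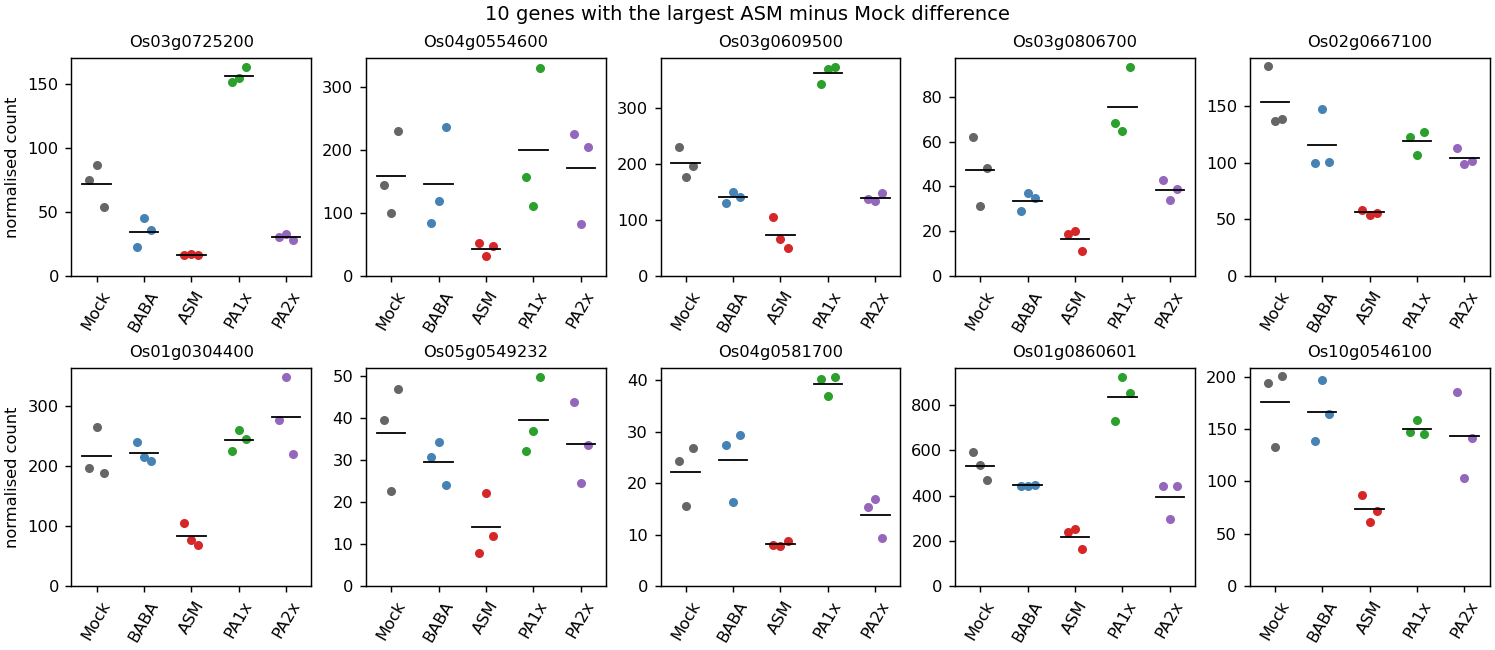
Normalised counts in each library (points) and group means (lines) for the 10 genes with the largest ASM minus Mock log2 difference. Os03g0725200, Os03g0609500, Os03g0806700, Os04g0581700 and Os01g0860601 have all PA1x points above every other point, while in Os01g0304400 PA1x lies among the other groups and in Os02g0667100 it lies below Mock.

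The gap between ASM and the rest was narrow for most genes. The ratio of the lowest other library to the highest ASM library had a median of 1.07 over the 96. That lowest library was of BABA for 36 genes, of PA2x for 33, of Mock for 19 and of PA1x for 8. At the edge of the rule, the 3 genes just inside were Os02g0695800, Os01g0164500 and Os06g0698674, with differences of -0.42, -0.41 and -0.41. Os03g0134900 and Os07g0452500 completed the 5 smallest differences, and Os07g0452500 was higher in PA1x than with BABA (limma log2 difference 0.50, adjusted p = 0.00692) and lower in PA2x than in PA1x (-0.43, adjusted p = 0.0156). The 3 just outside were Os11g0661900, Os01g0360600 and Os04g0382100, at -0.40, -0.40 and -0.39. Their levels varied widely on both sides. Os06g0698674, inside, had 379 to 399 normalised reads with ASM and 482 to 542 in Mock, and Os01g0360600, outside, had 63.6 to 71.2 against 81.8 to 106. In all, 143 rows had their 3 ASM libraries below the other 12, whatever the size of the difference.

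How the other treatments differed in these genes was asked first in comparisons that set neither ASM nor Mock against another group, since the rule used the Mock mean. The spread behind each test was still estimated from all 15 libraries. PA1x was higher than BABA in every gene that was called. Of the 96 genes 34 were higher in PA1x than with BABA and 0 were lower by limma, with 44 at an unadjusted p under 0.05 in either direction. Among the 14025 rows 2.48% were called higher and 9.53% lower. The rule removed genes with any PA1x or BABA library as low as ASM, so that the lack of genes lower in PA1x is in part fixed by the choice, and the same holds for PA2x in the comparison that follows. With edgeR 32 were called, with DESeq2 33, and with limma fitted on the 12 libraries without ASM 32. The called log2 differences were 0.33 to 2.204 with a median of 0.84. All 3 PA1x libraries lay above all 3 BABA libraries for 47 of the 96 genes, where 13.8% of the 14025 rows did. The opposite held for 4 genes, where 17.3% of rows did. The 47 genes include Os04g0581700, which passed the mean minimum only through PA1x. The largest differences were those of Os03g0725200 (2.204 ± 0.22, adjusted p = 1.01e-05), Os02g0224100 (1.40 ± 0.13, adjusted p = 4.27e-06), Os10g0364900 (1.37 ± 0.11, adjusted p = 1.64e-06) and Os03g0609500 (1.36 ± 0.19, adjusted p = 0.000189). These 4 kept their call with any 1 of the 6 libraries left out.

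Os10g0364900 shows the pattern at a higher level of expression. It had 1067, 921 and 1069 normalised reads in PA1x, 598, 636 and 549 in Mock, 439, 385 and 423 in PA2x, 358, 391 and 429 with BABA, and 259.6, 304 and 302 with ASM. PA1x and Mock did not overlap with each other or with the remaining groups, while PA2x and BABA overlapped. Os02g0224100 had 778, 838 and 826 in PA1x, 496, 616 and 415 in Mock, 304, 307 and 282 in PA2x, 292, 297 and 334 with BABA, and 267, 235 and 224 with ASM. PA1x and Mock again stood highest, with overlap of PA2x and BABA alone, and here BABA had a slightly higher mean than PA2x.

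The 2 piperonylic acid schedules were compared next, with the same PA1x libraries as in the comparison with BABA. Between PA2x and PA1x 35 of the 96 genes were called, 33 lower with the repeated spray and 2 higher, where 3.25% of the 14025 rows were called lower and 10.4% higher. The 3 PA1x libraries were all above the 3 PA2x libraries in 45 of the 96 genes (13.1% of the 14025 rows) and all below in 3 (18.1%). With edgeR and with DESeq2 35 were called, and with limma fitted on the 12 libraries without ASM 34. The 33 lower genes had log2 differences of -0.34 to -2.32, with a median of -0.78. Apart from Os04g0581700, the largest were Os03g0725200 (-2.32 ± 0.22, adjusted p = 4.58e-06), Os02g0224100 (-1.45 ± 0.13, adjusted p = 2.12e-06) and Os01g0680200 (-1.41 ± 0.11, adjusted p = 7.11e-07), all called with any 1 of the 6 libraries left out. The difference of Os04g0581700 was -1.47, but its mean without the PA1x libraries was 17.2: it reached the minimum of 20 through PA1x alone and is given no test. Without it 34 genes were called. Of the 96 genes 3 passed in this way, and the others of these were not called. The 45 genes with PA1x above PA2x include Os04g0581700. Without PA1x replicate 3, or without PA2x replicate 1, the count of 35 was 23.

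The 2 genes that were higher after the repeated spray had another order. Os03g0678800 had 399, 450.0 and 313 normalised reads in PA2x, 221, 226 and 220.0 in PA1x, 235 to 311 in Mock, 253 to 308 with BABA and 176 to 182 with ASM (PA2x minus PA1x 0.78 ± 0.14, adjusted p = 0.00097). Its PA1x libraries were the lowest after ASM, with no overlap with any group. Os09g0412300 had 1525, 1600.3 and 1099 in PA2x, 839, 973 and 886 in PA1x and 676, 674 and 819 with ASM (0.63 ± 0.16, adjusted p = 0.0163). With 1 library left out, the call held for PA1x replicate 2 and PA2x replicate 3 and was lost for the other 4 (adjusted p 0.0591 to 0.0857). PA2x and BABA were not told apart by limma in any of the 96 genes (0 called, 10 at an unadjusted p under 0.05, and 0% of the 14025 rows called). All 3 PA2x libraries were above all 3 BABA libraries in 10 genes (5.56% of rows) and below in 4 (4.8%). Their log2 differences ran from -0.77 to 0.63 with a median of 0.02 and a median SE of 0.16. With edgeR 0 were called and with DESeq2 1, Os05g0557700.

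**Figure D3:**
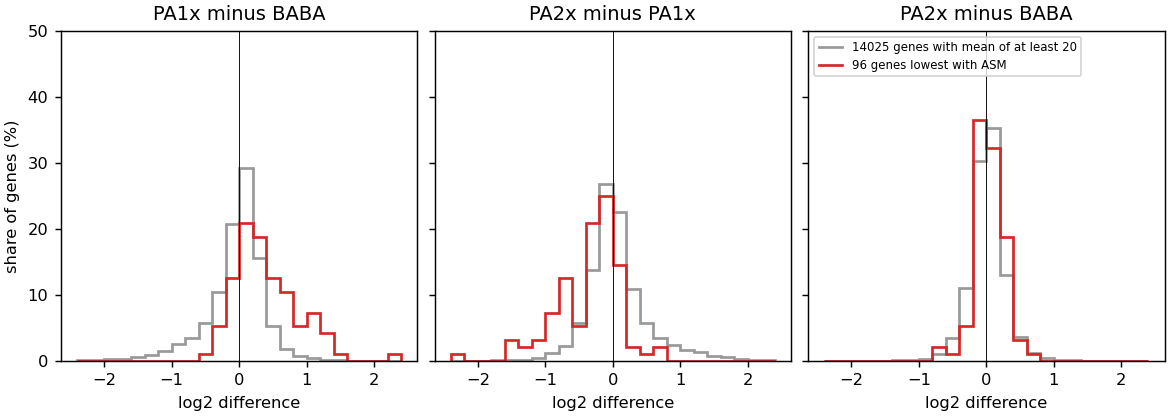
Share of genes (%) by log2 difference for 3 comparisons that hold neither ASM nor Mock, for the 96 genes lowest with ASM (red) and the 14025 rows with a mean of at least 20 (grey). The medians of the 96 genes are 0.33, -0.24 and 0.02 for PA1x minus BABA, PA2x minus PA1x and PA2x minus BABA, and those of the 14025 rows are 0.02, -0.00 and 0.02.

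The comparisons with Mock share the Mock libraries with the rule, which asked for a high Mock mean, so lower values in the other groups are favoured by the choice. The rule also removed genes with any PA1x library as low as ASM, so the lack of genes lower in PA1x than in Mock is in part fixed by the choice. PA1x was higher than Mock in all 9 of the 96 genes that were called, and 0.471% of the 14025 rows were called higher and 4.04% lower. The 3 PA1x libraries lay above the 3 Mock libraries in 37 of the 96 genes (8.55% of rows) and below in 5 (14.7%). With edgeR and with DESeq2 10 genes were called. Os03g0725200 rose by 1.14 ± 0.22 (adjusted p = 0.00727), Os10g0364900 by 0.78 ± 0.11 (adjusted p = 0.000925), Os03g0609500 by 0.85 ± 0.19 (adjusted p = 0.0208) and Os09g0453300 by 0.96 ± 0.24 (adjusted p = 0.0337) on the log2 scale. The first and the second kept the call with any library left out. Os03g0609500 kept it without Mock replicate 1 and lost it without any 1 of the other 5 libraries (adjusted p 0.0549 to 0.106). Os09g0453300 kept it without Mock replicate 1 or PA1x replicate 2 and lost it without any 1 of the other 4 (0.0915 to 0.194). The count of 9 was 5 without Mock replicate 2, PA1x replicate 1 or PA1x replicate 3. All 3 PA1x libraries were above the other 12 in 33 of the 96 genes, where 2.91% of the 14025 rows had this. The rule had already placed every PA1x library of the 96 genes above all 3 ASM libraries. This count is therefore in part fixed by the choice. The 33 and the 37 genes include Os04g0581700, which passed the mean minimum only through PA1x. The 37 also include Os05g0458600, which passed in the same way.

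For BABA and PA2x the difference from Mock is one that the choice favours, so the values are a description, no p is given and nothing is read from the counts. BABA was below Mock in the 4 genes past the threshold, where 0.0428% of the 14025 rows were past it on the lower side and 0.285% on the higher. The 3 BABA libraries lay below the 3 Mock libraries in 27 of the 96 genes (8.09% of rows) and above in 4 (8.24%). Os11g0235200 had 333 to 398 normalised reads in Mock and 247, 185 and 210.4 with BABA, a log2 difference of -0.80. Its ASM values of 175, 184 and 171 were just below those of BABA, and its PA1x values of 435 to 559.9 were above Mock. The log2 difference from Mock was -0.71 for Os02g0224100, -0.68 for Os01g0680200 and -0.60 for Os10g0364900. The count was 0 without Mock replicate 1 or BABA replicate 2, 1 without Mock replicate 2 or BABA replicate 1, and 0 when only the 6 libraries compared were fitted.

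PA2x was below Mock in the 6 genes past the threshold, where 0.2% of the 14025 rows were past it on the lower side and 0.97% on the higher. The 3 PA2x libraries lay below the 3 Mock libraries in 24 of the 96 genes (7.32% of rows) and above in 6 (8.42%). Os01g0680200 had 154, 168 and 166 normalised reads in PA2x, 315, 241 and 283 in Mock, 431, 461 and 412 in PA1x, 179, 164 and 177 with BABA and 141, 148 and 135 with ASM. PA2x and BABA overlapped in this gene, between ASM and Mock. The log2 difference between PA2x and Mock was -0.77 for this gene, -1.18 for Os03g0725200, -0.75 for Os02g0224100 and -0.72 for Os01g0631200. The count was 1 without Mock replicate 1, 2 without Mock replicate 2 or PA2x replicate 2, 3 without PA2x replicate 1, and 0 when only the 6 libraries compared were fitted.

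Over the 4 groups without ASM, 34 of the 96 genes were called by limma's moderated F test (11.2% of the 14025 rows were called), or 33 without Os04g0581700, which passed the minimum through PA1x. This test and the orders below include Mock, whose height above ASM the rule asked for. The choice thus favours BABA and PA2x below Mock in both, and nothing is read from the count called by the F test. The count was 22, 21 and 19 without PA1x replicate 1, 2 or 3. PA1x had the highest mean of the 4 groups in 61 of the 96 genes, against 30.1% of the 14025 rows, and the lowest in 8, against 32.0%. The 61 include the 3 genes that passed the mean minimum only through PA1x. The rule removed genes with any PA1x library as low as ASM, so the count of 8 is in part fixed by the choice. BABA and PA2x had the lowest mean in 39 genes each, against 27.6% and 25% of rows. The order PA1x, Mock, PA2x, BABA held in 27 genes (7.7% of rows) and the order PA1x, Mock, BABA, PA2x in 25 (8.02%). In 16 genes the separation was complete, with PA1x above Mock and Mock above both BABA and PA2x without overlap, as in 0.485% of the 14025 rows. Mock above BABA and PA2x is favoured by the choice, so nothing is read from this count. The mirror set, 260 genes highest with ASM by the same rule turned round, had PA1x lowest of the 4 groups in 161 genes (32.0% of the 14025 rows). Of the 260, 124 were called lower in PA1x than with BABA (9.53% of rows) and 0 higher (2.48%). The rule turned round removed genes with any PA1x library as high as ASM, so the lack of genes higher in PA1x is in part fixed by the choice. Whether the 2 sets differ in how far PA1x moved was not tested.

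The 8 most abundant genes of the set followed no common order. Os04g0610400 had the most reads, with 2982, 2493 and 2531 with ASM, 3115 to 3597 in PA1x, 3987 to 4301 with BABA, 3779.8 to 4834 in PA2x and 3986 to 5375 in Mock. Its PA1x libraries were next above ASM, without overlap with the rest, but no difference among the 4 groups passed (F test adjusted p = 0.197). Os03g0619875 had 2297, 2291 and 2285 in PA1x, 1636 to 1879 in Mock, 1415 to 2243 with BABA, 1362 to 1726 in PA2x and 1061 to 1218 with ASM. It was lower in PA2x than in PA1x (-0.57 ± 0.14, adjusted p = 0.0127). Os01g0871500 was called higher in PA1x than with BABA (0.38 ± 0.11, adjusted p = 0.0443), at 1827 to 1969 against 1315 to 1601. Os03g0708000, Os05g0584600 and Os02g0695800 had no call in any comparison without ASM.

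**Figure D4:**
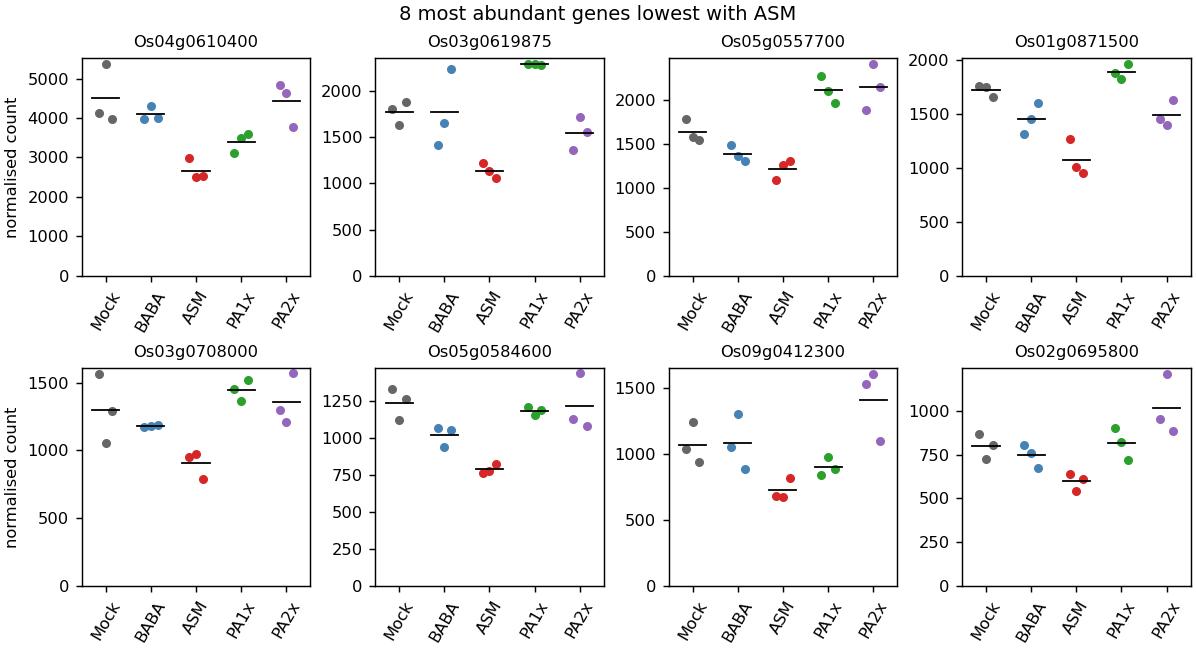
Normalised counts in each library (points) and group means (lines) for the 8 most abundant genes of the set. ASM is lowest in each by the rule; By group mean PA1x is highest in Os03g0619875, Os01g0871500 and Os03g0708000, next to lowest in Os04g0610400 and Os09g0412300, and level with PA2x in Os05g0557700.

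Known pathways were set against the genes through lists of 108 genes for nutrient and ion uptake, aquaporins, defence hormones, phenylpropanoids, cellulose, strigolactones, root patterning and auxin transport, and root and leaf markers, of which 107 were in the file. Of the 89 list genes with a mean of at least 20, 1 belonged to the set, Os05g0557700 of the phosphate list. This is 1.12% of them, near the 0.684% of all 14025 rows. It had 1089.9, 1259 and 1299 normalised reads with ASM, 1306 to 1486 with BABA, 1539 to 1780.3 in Mock, 1964 to 2265 in PA1x and 1887 to 2408 in PA2x. Both piperonylic acid groups were above Mock without overlap, and BABA was below it. PA1x was higher than BABA by 0.61 ± 0.11 (adjusted p = 0.00172), and PA2x minus Mock was 0.39 on the log2 scale. Of the list genes 96 were tested, and 6 were called lower with ASM than in Mock, where 1.55% of the 14025 rows were. The other 5 were not in the set because some library without ASM was as low as the highest ASM library. The nitrate reductase gene NIA1 (Os08g0468100) and the iron regulator gene IRO3 (Os03g0379300) each had 3 such libraries. The metal transporter gene NRAMP1 (Os07g0258400) had 4, and LSI1 and LSI2 had 1 each, PA2x replicate 2. By list, 1 of 8 nitrate genes, 1 of 12 iron deficiency genes, 3 of 8 genes of other ion transport and 1 of 7 phosphate genes tested were called lower with ASM than in Mock (1.55% of the 14025 rows). Called higher with ASM, as were 4.05% of the 14025 rows, were 4 of 7 salicylate and WRKY regulators, 6 of 12 jasmonate genes, 5 of 8 phenylpropanoid genes and 1 phosphate gene. None of 8 ammonium genes, 12 aquaporins, 6 cellulose synthases, 3 root patterning and auxin transport genes, 4 leaf markers or 1 strigolactone gene tested was called in either direction.

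Genes of the set were spread over all 12 chromosomes by identifier, with 19 on chromosome 3, which is 19.8% of the set against 14.2% of the 14025 rows. Only 1 pair had directly successive identifiers, Os04g0554500 and Os04g0554600. Os04g0554600 had 51.7, 30.8 and 46.9 normalised reads with ASM, 145, 101 and 231 in Mock, 83.9, 119 and 236 with BABA, 157, 111 and 331 in PA1x and 225, 82.8 and 205 in PA2x. Os04g0554500 had 386, 297 and 193 with ASM, 667, 424 and 991 in Mock, 502, 643 and 979 with BABA, 565, 638 and 1112 in PA1x and 866, 606 and 864 in PA2x. In both genes replicate 3 was the highest library of Mock, BABA and PA1x, and no difference among the 4 groups was called (F test adjusted p = 0.916 and 0.948). Neighbouring genes can share reads where their transcripts overlap. The other pair within 1000 identifier units, Os09g0453300 and Os09g0454200, had 6 rows between its members.

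Os03g0667400 lies by identifier between IRT2 (Os03g0667300) and IRT1 (Os03g0667500), the transporter genes that take up ferrous iron, and was singled out after its values were seen. It had 31.8, 38.5 and 32.7 normalised reads with ASM and 41.3 to 68.6 in the other 12 libraries. IRT1 had 11709, 4592 and 4404 with ASM against 9909 to 12167 in Mock, so that ASM replicate 1 was inside the Mock range for IRT1 and was the lowest of all 15 libraries for Os03g0667400. The order of the 3 ASM libraries thus differed between the 2 genes. Between ASM and Mock the log2 difference was -0.64 ± 0.18 for Os03g0667400 and -0.80 ± 0.31 for IRT1. Neither gene was called in this contrast (limma adjusted p = 0.193 for IRT1). Low IRT1 values were not particular to ASM: PA2x replicate 2 was at 4702, with PA2x replicates 1 and 3 at 9301 and 8565.

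**Figure D5:**
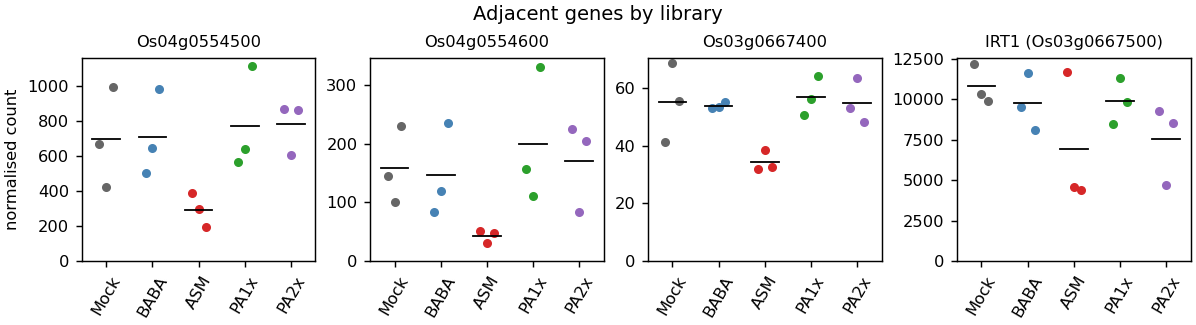
Normalised counts in each library (points) and group means (lines) for the adjacent pair Os04g0554500 and Os04g0554600, and for Os03g0667400 and its neighbour IRT1. The ASM points of the first 3 genes lie below all others; for IRT1 ASM replicate 1, at 11709, is far above the other two ASM points.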

How the data were processed

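The deposited table gives a signal per gene and library: read counts after scaling by the authors, with 1 factor for each library, as the values show; per the submitters' processing notes the tools were FastQC 0.11.8, Trimmomatic 0.38, STAR 2.6.1d and DESeq2. Libraries were 3′ end libraries (QuantSeq) from 2 µg of RNA, per the labels' protocols. Genome build and annotation were not given in the sources used here, nor was the strand setting; overlapping, antisense and near-identical genes are therefore uncertain. Whole reads were recovered (100% of values within 0.1 of a whole number of reads); size factors ran from 0.620 to 1.53. A count of 3 reads, the most that a 0 allows, equals 1.96 to 4.84 normalised reads, which covers counting error only.

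Of 35667 Os rows, 18288 with a mean of at least 5 were tested with limma 3.58.1 (trend, R 4.3.3) on log2(value + 1), in a fit of the 5 groups over all 15 libraries without covariates (two-sided, Benjamini-Hochberg, threshold 0.05); this scale understates changes of low genes. All 96 genes passed the filter. Differences are signed first group minus second, errors are SE. edgeR 4.0.16 (quasi-likelihood) and DESeq2 1.42.0 on the recovered reads were alternatives. The scripts were tested on simulated data. P-values measure the spread between pools of 4 plants. Whether replicate numbers pair libraries was checked on deviations from group means. Same-numbered libraries correlated at -0.340 to 0.402, over 0.1 in 9 of 30 pairs. Without ASM, 9 of 18 were over 0.1, including all 6 pairs of replicates 3 (0.236 to 0.402), 3 of 6 pairs of replicates 2 and 0 of 6 pairs of replicates 1. No 2 groups had every pair over 0.1, so the numbers were not taken as pairing. Of pairs with different numbers, 16 of 60 were over 0.1. ASM replicate 1 correlated at 0.228 to 0.320 with replicates 3 of the other groups, and ASM replicate 3 at -0.340 to -0.251. The cause was not tested.

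The genes, lists and tests were chosen with earlier results of these data known. Genes named are the 10 largest and 5 smallest differences, the 8 most abundant, list members, up to 4 called per comparison and direction, those at the edge of the rule, and neighbours. List names come from general knowledge; 78 of 108 have a namesake on the same chromosome in the RefSeq table of assembly ASM3414082v1, which holds 1 of the file's identifiers. IRT1, IRT2, LSI1, LSI2, NIA1, IRO3 and NRAMP1 have one, and Os05g0557700 has none, so it is not named.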

Additional observations from a re-analysis of the deposited data

How the results depend on the processing

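The number of genes lowest with ASM was 66 to 126 under another mean minimum, pseudocount, difference or scaling, and 92 to 448 with 1 library left out. TMM factors gave 108 genes with 92 of the 96, and reads thinned to the smallest library 101 with 59 of the 96. The median ASM minus Mock difference, an alternative added after the data were seen, was -0.76 to -0.68 with a library left out. With 1 library left out the counts of genes called were 0 to 6 for BABA against Mock, 5 to 7 for PA1x against Mock, 1 to 6 for PA2x against Mock, 23 to 33 for PA2x against PA1x, 28 to 32 for PA1x against BABA, 0 for PA2x against BABA and 19 to 34 for the F test. BABA against Mock gave 7 with a mean minimum of 20, 7 with DESeq2 and 0 with only the libraries compared, which gave 0 for PA2x against Mock too; PA2x against BABA gave 1 with DESeq2. With the replicate number as a block the counts were 6, 7, 6, 34, 33, 0 and 33 in the order above, and as the numbers were not taken as pairing nothing further is read from them, though replicates 3 of the 4 groups without ASM deviated together; 8 of 15 libraries correlated best with one of their own number. Of 308 refits of 22 named calls, 262 kept the call, 46 lost it and none changed sign. The 22 include the calls of BABA and PA2x against Mock, which the choice favours, and that of Os04g0581700. Nothing is therefore read from the total. Every named call of BABA or PA2x against Mock was lost in some refit, and no named call of PA1x against BABA was. The causes were not tested.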

Other observations

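Identifiers that do not end in 00 made up 11 of the 96 genes, or 11.5%, and 2.89% of the 14025 rows. They include Os01g0860601 and Os03g0619875, at means of 485 and 1704 normalised reads, and Os05g0549232 at 30.7. This count was made after the values were seen.

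The spread between replicates of the 96 genes was a median coefficient of variation of 9.75% with ASM, 8.5% in PA1x, 11.6% with BABA, 12.3% in PA2x and 15% in Mock. The rule favours a narrow spread with ASM. By the same rule, 28 genes were lowest with BABA, 30 with PA2x and 875 with PA1x. Among the 11 rows with a mean of at least 20 that carry no Os identifier, 0 had ASM below the other 12 libraries.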
